A study of Mus musculus with 7 samples.

Results

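The binding of RNA POLII, C-MYC and SOX2 was examined around 4 otic fate genes, *Atoh1*, *Gata3*, *Pax2* and *Jag1*, in immortalized multipotent otic progenitor (iMOP) cells. These cells are a mouse line derived from SOX2-expressing cells of the embryonic cochlea by infection with a *c-Myc* retrovirus. For every sample, proliferating cells had been grown as floating otospheres with B27 and 20 ng/ml of bFGF, and no treatment or genotype separates the samples. Chromatin was immunoprecipitated with RNA polymerase II clone 4H8, c-Myc (N-262) or Sox2 clone 6F1.2, with 2 biological replicates per antibody. Whether the replicates came from separate lines is not stated in the sources used here, so their spread may be partly technical. Peaks are places where tags, the sequenced ends of the precipitated DNA, pile up above the background, and the authors deposited 1 list of peaks per replicate. The members are all peaks that overlap a window reaching about 50 kb beyond the gene on either side, in positions of the mouse build mm9. The windows are chr6:64629000-64731000 for *Atoh1*, chr2:9729000-9862000 for *Gata3*, chr19:44782000-44962000 for *Pax2* and chr2:136857000-136992000 for *Jag1*. They hold 66 of the 238420 peaks in the 6 lists. Peaks of any list that shared at least 1 bp were joined into 1 region, which gave 34 regions in the windows among 115440 in the genome.

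All 4 genes are known for their part in building the inner ear. PAX2, a paired-box transcription factor, marks the early otic vesicle and is needed to form the cochlea, and GATA3, a zinc-finger transcription factor, acts from the otic placode onward in cochlear and neuronal development. JAG1 is a ligand of the Notch receptors that helps set up the prosensory cells, which SOX2 also marks. ATOH1 is the basic helix-loop-helix factor that drives hair cell differentiation, and Notch signaling between neighboring cells restrains it. C-MYC binds DNA with a partner at E-boxes, SOX2 binds through its HMG domain, and RNA POLII gathers at the starts of transcribed genes.

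Peaks lay on or beside the start of *Atoh1* and of *Jag1*, so the 250 bases before the RefSeq start of each are given, to show the sequence of the 2 starts that the peaks are set against below. These are not the letters under every peak. By the start that the window gives, all 6 *Atoh1* summits lay downstream, and the sole adjoining peak upstream at *Jag1* was that of POLII replicate 2. That start is approximate, so the side on which a peak lies is not settled. The 250 bases were read on the gene's own strand in build GRCm38.p6 (chr6:64728875-64729124, plus strand, and chr2:137116521-137116770, minus strand). Positions of that build cannot be set beside the mm9 positions of the peaks. Capitals mark CANNTG, the general E-box, and ACAAT, the core of SOX motifs, on either strand.
Atoh1: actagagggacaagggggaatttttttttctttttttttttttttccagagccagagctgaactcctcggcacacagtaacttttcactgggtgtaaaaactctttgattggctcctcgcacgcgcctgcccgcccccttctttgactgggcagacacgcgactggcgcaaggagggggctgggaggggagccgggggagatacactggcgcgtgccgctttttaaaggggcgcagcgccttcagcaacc
Jag1: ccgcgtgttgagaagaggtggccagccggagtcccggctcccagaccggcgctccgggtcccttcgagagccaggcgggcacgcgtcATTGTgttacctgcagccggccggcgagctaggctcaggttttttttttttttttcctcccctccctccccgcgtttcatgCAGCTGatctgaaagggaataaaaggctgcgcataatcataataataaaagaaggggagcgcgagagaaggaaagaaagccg
The *Jag1* stretch holds CAGCTG and ATTGT, which is ACAAT on the opposite strand, and the *Atoh1* stretch holds neither motif. Over the full 300 bases, from 250 before to 50 after the start, CANNTG was found in 72.3% of the 32851 RefSeq mouse promoters and ACAAT in 31.0%. The E-box CACGTG, which is also a CANNTG and which 7.2% of promoters hold, was in none of the 6 promoters listed for the 4 genes. The full promoters of *Atoh1* and *Jag1* hold 20 and 22 CG pairs, against a median of 7 over all promoters. A match to a motif is a description of the letters and not a binding site.

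*Jag1* held most of the C-MYC and SOX2 peaks of the 4 windows. Of the 36 peaks of these 2 factors, 22 were at *Jag1*, 5 at *Atoh1*, 5 at *Gata3* and 4 at *Pax2*. At *Jag1* there were 6 and 7 peaks in C-MYC replicates 1 and 2, 4 and 5 in the SOX2 replicates and 6 in POLII replicate 2. POLII replicate 1 went the other way, with 9 peaks at *Atoh1*, 8 at *Gata3*, 2 at *Pax2* and 1 at *Jag1*. At *Atoh1*, *Gata3* and *Pax2* no other list had more than 2 peaks. Of the 20 peaks of POLII replicate 1, 17 overlapped no peak of any other list, which is near the 76.0% of its whole list. In the other lists 0 to 2 peaks of the windows were alone in this way, against 9.49% to 19.2% of their whole lists, so POLII replicate 1 stood apart here as it did over the genome. Counts of regions are given with and without it. Regions seen in POLII replicate 1 and in no other list made up 8 of 10 at *Atoh1*, 7 of 9 at *Gata3*, 2 of 5 at *Pax2* and 0 of 10 at *Jag1*, against 35.2% of all regions of the genome. Without POLII replicate 1 the windows held 17 regions, with 2 at *Atoh1*, 2 at *Gata3*, 3 at *Pax2* and 10 at *Jag1*.

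**Figure D1:**
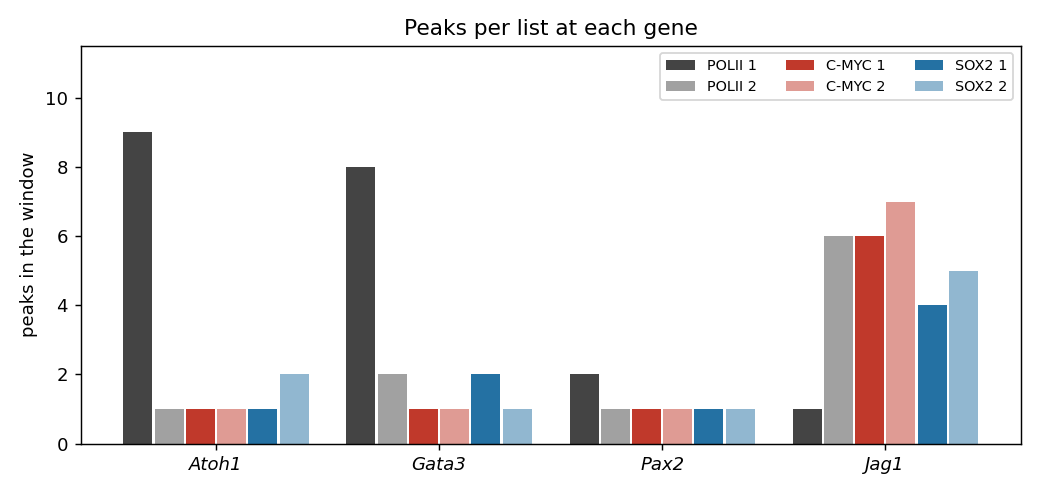
Number of peaks (vertical axis) of each of the 6 lists in the windows of the 4 genes, with dark bars for replicate 1 and pale bars for replicate 2 of POLII (grey), C-MYC (red) and SOX2 (blue). The C-MYC, SOX2 and POLII replicate 2 bars are highest at *Jag1*, and POLII replicate 1 has 9 peaks at *Atoh1* and 1 at *Jag1*.

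The levels were compared between genes as tags in peaks, per 1000000 tags in all peaks of the list and per 100 kb of window, since the windows differ in length and the total number of reads is not given. Spread evenly up to the last peak of each chromosome, the tags of any list would give 37.9. At *Jag1* this level was 152 and 219 in the C-MYC replicates, 79.2 and 220 in the SOX2 replicates, and 16.1 and 111 in the POLII replicates. At *Atoh1* it was 18.5 and 19.6 for C-MYC, 22.0 and 33.0 for SOX2, and 232 and 9.39 for POLII. *Jag1* was above the even level in all lists but POLII replicate 1, and *Atoh1* was below it in all lists but POLII replicate 1. The even level is spread over whole chromosomes, with or without genes. Windows around other genes were not measured, so it does not show whether *Jag1* or *Atoh1* is unusual among genes. At *Gata3* the values were 7.89 and 8.11 for C-MYC, 13.6 and 8.85 for SOX2, and 140 and 12.4 for POLII. *Pax2* was the lowest in both C-MYC and both SOX2 lists, with 3.31 and 5.82 for C-MYC and 4.23 and 8.41 for SOX2, and POLII gave 43.3 and 1.73 there. The means were 185 ± 47.3 at *Jag1*, 19.1 ± 0.756 at *Atoh1*, 8.0 ± 0.16 at *Gata3* and 4.56 ± 1.78 at *Pax2* for C-MYC (SD, n = 2). For SOX2 they were 149 ± 99.3, 27.5 ± 7.72, 11.2 ± 3.38 and 6.32 ± 2.95 in the same order (SD, n = 2). Per 100 kb, the order *Jag1*, *Atoh1*, *Gata3*, *Pax2* was the same in all 4 lists of the factors. No gene's range over a factor's replicates overlapped that of its neighbor. The closest values were 8.85 at *Gata3* and 8.41 at *Pax2* in SOX2 replicate 2. Not divided by window length, *Gata3* and *Pax2* gave 10.49 and 5.95 in C-MYC replicate 1, and 10.79 and 10.47 in C-MYC replicate 2. They gave 18.13 and 7.61 in SOX2 replicate 1, and 11.77 and 15.13 in SOX2 replicate 2, where *Pax2* was thus higher. The C-MYC replicate 1 value at *Pax2* also leaves out a peak of 21 tags that begins 1 bp outside the window. For POLII the replicates gave opposite orders of *Jag1* and *Atoh1*, so no order of the genes could be read. With 2 replicates per antibody, an exact two-sided permutation test cannot give a p below 0.333, so no test was run between antibodies.

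**Figure D2:**
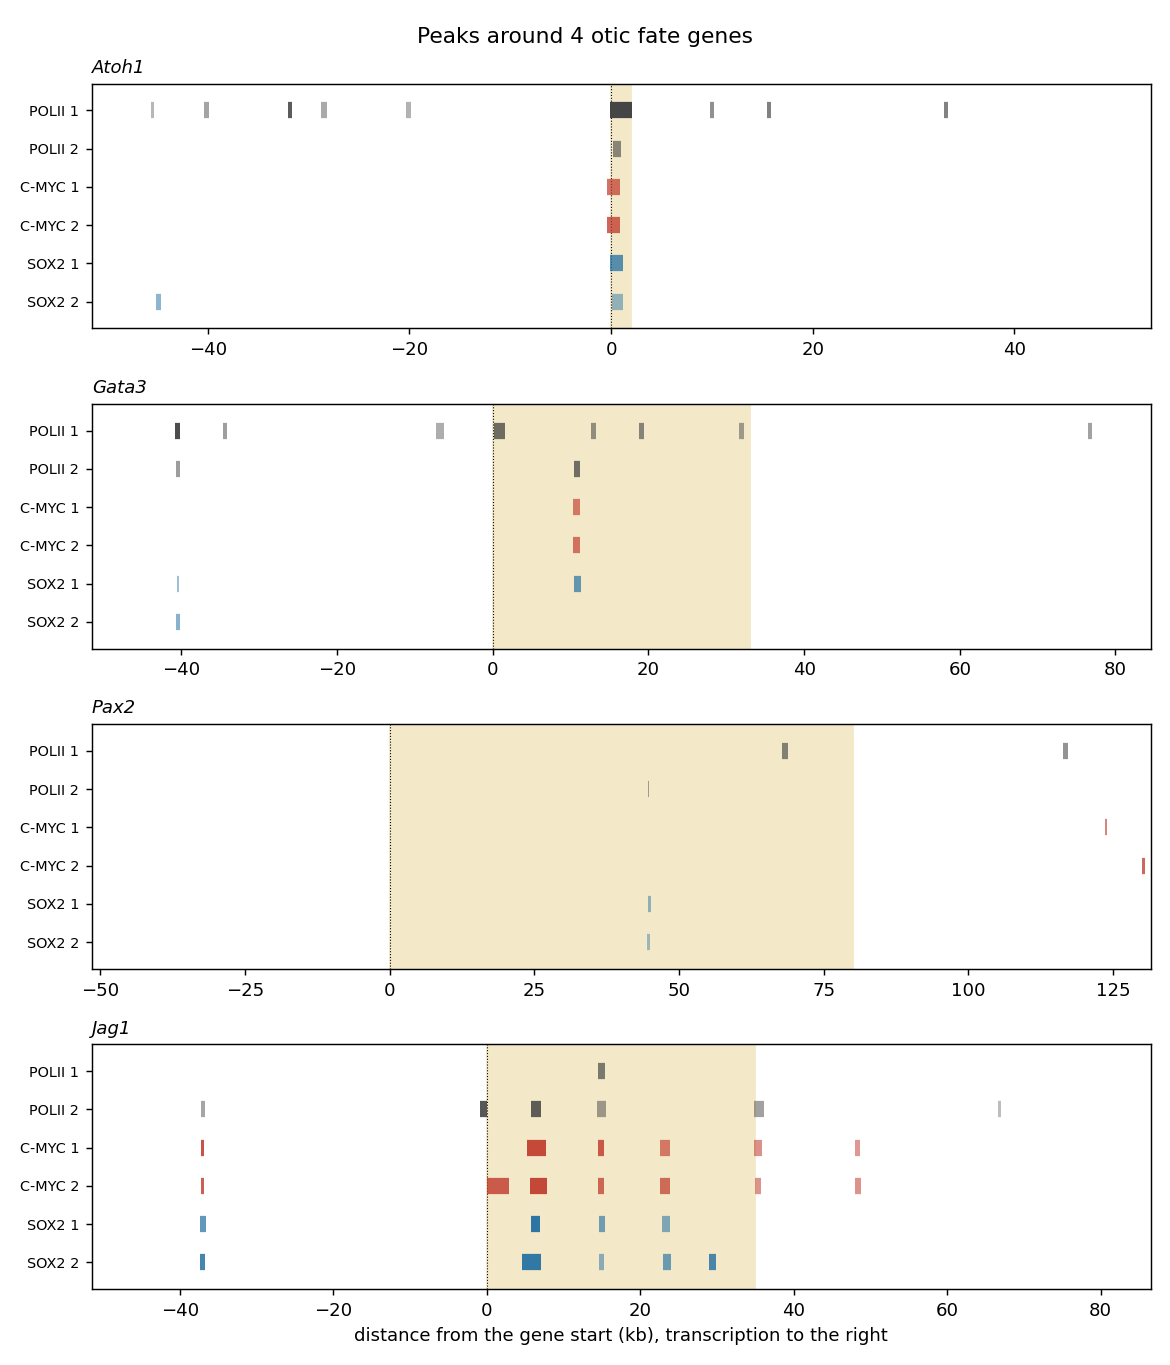
Positions of the 66 peaks (bars, to scale) in the 6 lists (rows) at the 4 genes, by distance from the gene start in kb with transcription to the right. The shaded part is the gene, taken as the window less 50 kb on either side, and a darker bar has a higher score within its list. All 6 lists have a bar at the start of *Atoh1*, no list has one near the start of *Pax2*, and at *Jag1* bars of several lists stand above each other inside the gene and upstream of it.

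At *Jag1*, C-MYC and SOX2 were both present at 4 of the 10 regions, each in both replicates, against 12.6% of all regions of the genome (19.4% when regions were made without POLII replicate 1). C-MYC was in both replicates at 6 of the 10 regions (30.8% of all regions) and SOX2 at 4 (14.4%). The strongest was chr2:136934210-136937361, which runs from 4.639 to 7.79 kb downstream of the gene start, inside the gene. It held 393 and 351 tags in the C-MYC replicates, 196 and 309 in the SOX2 replicates and 216 in POLII replicate 2, and no peak of POLII replicate 1. The score, 10 times the −log10 of the p-value of a peak, ranked there at the 86.4 and 87.1 percentile of the C-MYC lists, the 94.4 and 90.4 percentile of the SOX2 lists and the 77.7 percentile of POLII replicate 2. These were the highest ranks of C-MYC and SOX2 in any of the 4 windows. The fold enrichment over background was 9.99 and 10.13 for C-MYC, 11.91 and 7.34 for SOX2 and 10.06 for POLII replicate 2. These values overlapped in range, but by rank within its own list C-MYC lay below both SOX2 and POLII replicate 2, which overlapped. C-MYC ranked at the 43.3 and 46.8 percentile by fold enrichment, SOX2 at the 79.8 and 62.1 percentile and POLII replicate 2 at the 70.8 percentile.

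The *Jag1* start itself looked different in each list. POLII replicate 2 had a peak of 901 bp there, chr2:136942023-136942923, with 271 tags, a score of 478.37 and a fold enrichment of 9.85. This was the highest score among the 66 peaks, but scores of different lists are not scaled to a common depth. Within its own list the peak ranked at the 84.2 percentile by score. C-MYC replicate 2 had a peak of 2848 bp beside that POLII peak, chr2:136939142-136941989, with 399 tags, which ended 33 bp before the POLII peak began. By the start that the window gives, the C-MYC peak lay just inside the gene and the POLII peak just upstream. That start is approximate, so which of these peaks lies across the true start is not settled. C-MYC replicate 1 had no peak where C-MYC replicate 2 had this one, and its nearest edge was 5247 bp from the start. Neither SOX2 replicate had a peak across the start, the nearest edges being 5790 bp and 4639 bp away, and the nearest peak of POLII replicate 1 was 14.435 kb away. At the *Jag1* start the C-MYC peak and the POLII peak were thus each seen in 1 replicate of 2.

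A region upstream of *Jag1*, chr2:136978620-136979420, lay 36.62 to 37.42 kb before the start. It was narrow, at 801 bp, and held few tags, with 32 and 28 in the C-MYC replicates, 23 and 44 in the SOX2 replicates and 19 in POLII replicate 2. Its fold enrichment was the highest of the 4 windows for C-MYC, at 23.46 and 18.66, which ranked at the 98.9 and 95.3 percentile of those lists. For SOX2 the fold enrichment was 16.13 and 8.95, and for POLII replicate 2 it was 10.47. Both C-MYC values were above both SOX2 values, but the lists differ in their usual fold enrichment. Within their own lists the SOX2 values ranked at the 95.8 and 80.7 percentile, so SOX2 replicate 1 ranked above C-MYC replicate 2. The summits of all 5 peaks lay within 70 bp. Fold enrichment and tags therefore ordered the *Jag1* regions differently, the upstream region leading by the first and the region inside the gene by tags among the regions that C-MYC and SOX2 shared.

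Further inside *Jag1*, chr2:136926529-136927641, 14.359 to 15.471 kb downstream of the start, was the single region of this gene with a peak in all 6 lists. The peaks held 50 and 38 tags for C-MYC, 31 and 34 for SOX2, and 37 and 74 for POLII. The fold enrichment was 15.04 and 11.46 for C-MYC, 8.96 and 5.29 for SOX2, and 4.43 and 7.0 for POLII, so C-MYC stood above the other antibodies in both replicates. At chr2:136917952-136919395, C-MYC had 66 and 72 tags and SOX2 45 and 73, with no POLII peak of either replicate. Toward the end of the gene and beyond it, 2 regions had C-MYC in both replicates and no SOX2. They were chr2:136905832-136907157, with 26 and 24 C-MYC tags and 82 tags in POLII replicate 2, and chr2:136893282-136894051, with 19 tags in each C-MYC replicate. The 2 remaining regions were seen once, with 69 tags in SOX2 replicate 2 at chr2:136912188-136913086 and 13 tags in POLII replicate 2 at chr2:136874956-136875326.

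**Figure D3:**
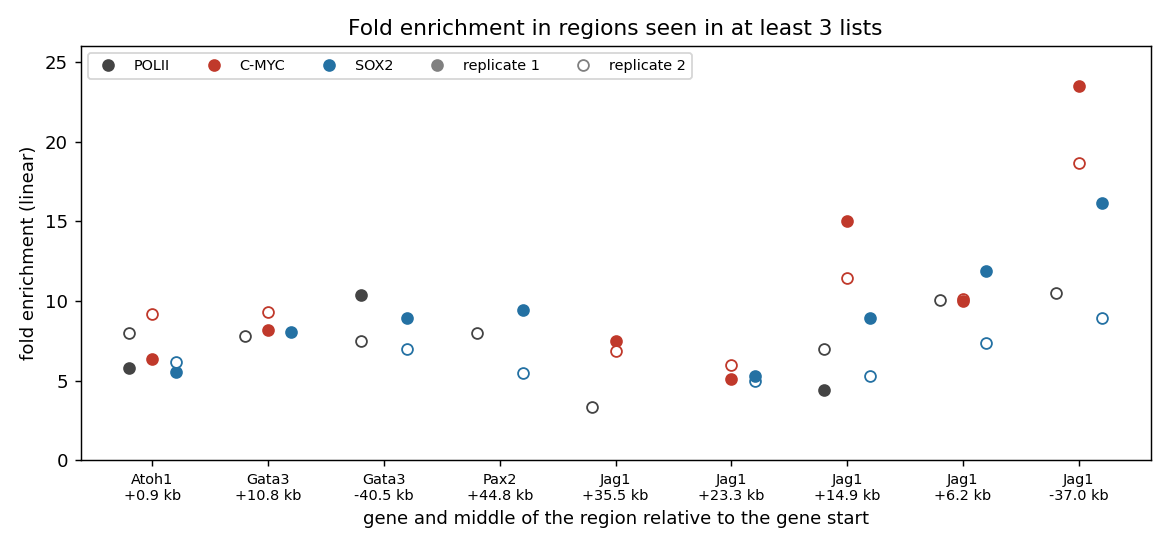
Fold enrichment (linear ratio over background, vertical axis) of each peak in the 9 regions seen in at least 3 lists, for POLII (grey), C-MYC (red) and SOX2 (blue), with filled points for replicate 1 and open points for replicate 2. C-MYC reaches 23.46 and 18.66 in the region upstream of *Jag1*, while at *Atoh1* all 6 values lie between 5.56 and 9.21.

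*Atoh1* had binding of all 3 antibodies in a single place, its start. The region chr6:64678609-64681115 was 2507 bp long, began 0.391 kb upstream of the start taken from the window and held a peak of each of the 6 lists. Peaks in all 6 lists were found at 2 of the 34 regions, here and inside *Jag1*, against 2.25% of all regions. C-MYC had 54 and 63 tags, SOX2 62 and 36, and POLII 273 and 43. In these tags, which are not scaled for library size, the replicates of C-MYC were close and those of SOX2 and POLII were not. The whole SOX2 lists held 2758044 and 1784465 tags in replicates 1 and 2, and the POLII lists 1705241 and 4488517. The unscaled tags alone thus do not show how close the SOX2 replicates were. The POLII replicate 1 peak was 2203 bp long and its score of 198.99 ranked at the 99.1 percentile of its list, while the POLII replicate 2 peak was 848 bp long and its score of 87.5 ranked at the 40.5 percentile. For C-MYC the scores ranked at the 56.1 and 65.3 percentile, and for SOX2 at the 63.1 and 18 percentile. The fold enrichment was below the list's median in 5 of the 6 lists, the exception being POLII replicate 2 with 8.0.

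The summits at *Atoh1*, the points of highest tag density, differed by antibody. Measured from the start that the window gives, the C-MYC summits lay 0.035 and 0.034 kb downstream. The SOX2 summits lay 0.394 and 0.395 kb downstream of it, and the POLII summits 0.425 and 0.419 kb. That start is approximate, so these distances do not place a summit on either side of the true start. The gaps between summits do not depend on it. Replicates were thus 1 bp apart for C-MYC, 1 bp for SOX2 and 6 bp for POLII, whereas C-MYC and SOX2 were 359 to 361 bp apart and SOX2 and POLII 24 to 31 bp apart. A similar distance was seen at chr2:136917952-136919395 in *Jag1*, where C-MYC and SOX2 summits were 348 to 422 bp apart and replicates 50 and 24 bp apart. In the other 3 regions with both factors the distance was smaller. It was 1 to 38 bp in the *Jag1* region with all 6 lists, 15 to 100 bp in the region with most tags and 3 to 69 bp upstream of *Jag1*, with replicates of SOX2 27, 115 and 65 bp apart.

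The other 9 regions in the *Atoh1* window were each in 1 list. They were 8 peaks of POLII replicate 1, with 12 to 20 tags and a fold enrichment of 5.8 to 12.83, and a peak of 24 tags in SOX2 replicate 2 at chr6:64633858-64634409. Away from the start there was no region around *Atoh1* that the replicates of any antibody shared. The density of POLII replicate 1 peaks was 8.82 per 100 kb at *Atoh1* and 6.02 at *Gata3*, against 2.03 in its whole list, and 0.741 at *Jag1*. Few tags did not mean a low rank throughout. The peak at chr6:64646984-64647334, 31.816 kb upstream of the *Atoh1* start, had 16 tags, and its score of 85.65 and fold enrichment of 12.83 ranked at the 80.0 and 97.0 percentile of the list. Whether these peaks are binding was not tested.

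At *Gata3*, C-MYC was found in a single region, chr2:9800706-9801630, inside the gene. It held 30 and 34 tags in the C-MYC replicates, 40 in SOX2 replicate 1 and 52 in POLII replicate 2, with nothing in SOX2 replicate 2 or POLII replicate 1. The scores ranked at the 45.3 and 50 percentile for C-MYC, the 53.8 percentile for SOX2 replicate 1 and the 61.1 percentile for POLII replicate 2, near the middle of each list. It lay 10.37 to 11.294 kb downstream of the gene start as the window gives it. RefSeq lists the *Gata3* promoter 9353 bp inside the end of its gene span in GRCm38, a distance near the 10.37 kb of this region. That start could not be placed in mm9, so whether this region is the promoter is not known. Counts at the start taken from the window may thus not be those of the promoter. Within 5 kb of the start taken from the window there was a single peak, of POLII replicate 1, with 102 tags and a fold enrichment of 3.90. At 15 kb there were peaks of 5 lists, all but SOX2 replicate 2. The other 6 regions were single peaks of POLII replicate 1 with 18 to 55 tags.

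SOX2 in both replicates was seen at *Gata3* in 1 region, chr2:9852119-9852789, which lay 40.119 to 40.789 kb upstream. The SOX2 peaks there had 10 and 21 tags and the POLII peaks 37 and 22 tags in replicates 1 and 2, and there was no C-MYC peak. The 4 summits lay within 29 bp. The scores were low for SOX2, at the 13.7 and 29.5 percentile, and uneven for POLII, at the 92.5 and 26.1 percentile. C-MYC and SOX2 therefore did not share a region in both replicates at *Gata3*. With a peak in either replicate enough, they shared 1.

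*Pax2* had no peak of any list within 44 kb of its start. RefSeq lists 3 starts of *Pax2*, which span 10305 bp in GRCm38, and the window gives 1 approximate start. The single region that replicates of SOX2 shared, chr19:44876443-44877146, was inside the gene, 44.443 to 45.146 kb downstream of the start. It held 21 and 27 SOX2 tags and 14 tags of POLII replicate 2, with scores at the 20.4, 10.7 and 18.2 percentile of their lists and summits within 25 bp. The C-MYC peaks were beyond the end of the gene. C-MYC replicate 1 had 17 tags at chr19:44955593-44956041, and C-MYC replicate 2 had 33 tags at chr19:44961956-44962527, a peak that crosses the edge of the window. C-MYC replicate 1 also had a peak of 21 tags on that last region, which begins 1 bp outside the window and is not counted among the 66. The 2 peaks of POLII replicate 1, with 68 and 65 tags, overlapped no other list.

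Across the 4 genes, agreement between replicates differed by antibody. Of the C-MYC peaks, 8 of 9 in replicate 1 overlapped a peak of replicate 2 (84.6% in the whole list) and 9 of 10 did so in the other direction (81.1%), close to the share in all peaks. For SOX2, 7 of 8 peaks of replicate 1 overlapped replicate 2 (41.7%) and 7 of 9 did so in the other direction (62.3%). For POLII the counts were 3 of 20 (9.82%) and 3 of 10 (16.5%), and POLII was in both replicates at 3 of the 34 regions (4.72% of all regions). These counts are small, and those of 1 gene share their neighborhood. C-MYC and SOX2 were both present, in both replicates of each, at 5 of the 34 regions, 4 at *Jag1* and 1 at *Atoh1*, which is near the 12.6% of all regions. Made without POLII replicate 1, the same regions were 5 of 17, or 29.4%, against 19.4% of such regions in the genome. The regions with a peak in all 5 other lists were 4 of 17, of which 3 were at *Jag1* and 1 at *Atoh1*, against 17.4% in the genome.

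**Figure D4:**
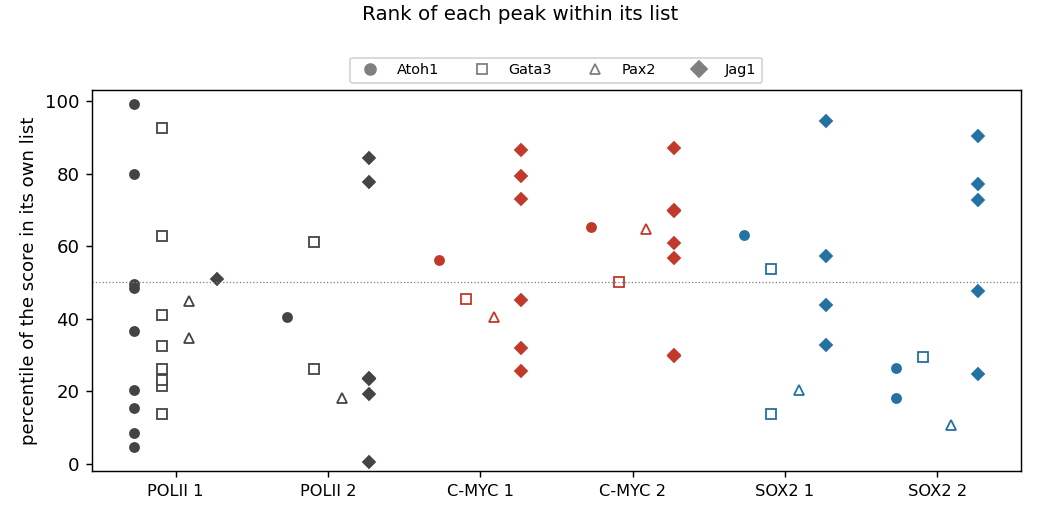
Percentile of each peak's score within its own list (vertical axis, with 50 as the middle of the list, dotted) for the 6 lists, with a symbol for each gene. In the C-MYC, SOX2 and POLII replicate 2 lists the highest symbol is a *Jag1* peak, and in POLII replicate 1 it is the *Atoh1* peak at the 99.1 percentile.

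Measured by the highest-ranking peak of each list, the genes came in the same order by the median score percentile, though not in every list. The median over the 6 lists of that percentile was 86.7 at *Jag1*, 59.6 at *Atoh1*, 51.9 at *Gata3* and 30.4 at *Pax2*. Ranked by fold enrichment it was 88 at *Jag1*, 44.2 at *Atoh1*, 48.7 at *Gata3* and 53.2 at *Pax2*, so that *Jag1* stayed first and the order of the other genes turned round. *Jag1* also has the most peaks from which the highest was taken. At *Jag1* the values were 86.4 and 87.1 for C-MYC, 94.4 and 90.4 for SOX2, and 51.0 and 84.2 for POLII. At *Atoh1* they were 56.1 and 65.3 for C-MYC, 63.1 and 26.5 for SOX2, and 99.1 and 40.5 for POLII. At *Gata3* they were 45.3 and 50 for C-MYC, 53.8 and 29.5 for SOX2, and 92.5 and 61.1 for POLII. At *Pax2* they were 40.4 and 64.7 for C-MYC, 20.4 and 10.7 for SOX2, and 44.9 and 18.2 for POLII. *Jag1* was first in all lists but POLII replicate 1, where *Atoh1* and *Gata3* were above it. *Gata3* was above *Atoh1* in SOX2 replicate 2 and POLII replicate 2, and *Pax2* was above *Gata3* in C-MYC replicate 2. The lists hold only peaks with a score of at least 50, so weaker binding at *Pax2* or *Gata3* would not appear in them.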

How the data were processed

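ChIP-seq of 6 samples was analysed, 2 each for POLII, C-MYC and SOX2, and peaks of the input sample were not analysed here. The authors called peaks per replicate without pooling and deposited, for each peak, a raw count of tags that is not scaled for library size, a score (10 times the −log10 of the p-value, at least 50 in every list) and a fold enrichment, which is a linear ratio over a background that is not named. The build is mm9 per the submitters' processing notes. The aligner, the peak caller and its control are not given in the sources used here. The lists held 26637 to 53528 peaks and 1705241 to 4488517 tags, and the total depth is unknown.

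Regions were made with python 3.11.15, numpy 2.4.6 and pandas 2.3.3 by joining peaks of all lists that share at least 1 bp. The joining was tested on simulated peaks, and bedtools 2.31.1 gave the same 115440 regions. A factor was called in a region when both of its replicates had a peak. The region at the far edge of the *Pax2* window keeps its peak outside the window. Percentiles are ranks within a list, and the summit is the start of a peak plus its deposited offset. The gene start was taken as the window edge less 50 kb on the side where the strand in the RefSeq promoter table puts it, so it is approximate. The distance of 5 kb is that of the study, but lists with any peak there were counted, and no target genes were called. Strand and promoter sequences came from RefSeq (GRCm38.p6), where all 4 genes matched by symbol. All results are descriptions without a test. The genes, windows and measures were chosen with earlier results of these data known, and the rule was to name the 4 genes. A list of other otic genes was not placed, because no mm9 annotation was used here.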

Additional observations from a re-analysis of the deposited data

How the results depend on the processing

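No paired analysis was possible because the counts and ranks are descriptions with no test or fit in which the replicate number could stand as a block. Of 187 recomputed values, 161 stayed within 1.5 times the count or within the spread between replicates, and 26 moved. Some values could not move, so the share that stayed does not measure how stable the results are. Leaving out 1 list, for example, could lower the lists at the *Atoh1* start only from 6 to 5, and could not change the 0 at *Pax2*. Counts and ranks have no sign, so a change of direction does not apply to them. Moved values are given here, and the cause was not tested unless it is stated. With the 50% of each list with the highest score there were 13 regions in all, 2 at *Atoh1*, 3 at *Gata3* and 1 at *Pax2*, and regions with C-MYC and SOX2 numbered 2 in all, 2 at *Jag1* and 0 at *Atoh1*. With 26637 peaks from every list there were 17 regions, with 3 each at *Atoh1*, *Gata3* and *Pax2*. With windows of 25 kb there were 20 regions, 4 at *Atoh1* and 2 at *Pax2*, since less of the genome was covered. *Gata3* had 1 region with C-MYC and SOX2 when either replicate, or replicate 1 alone, was enough. The number of lists with a peak within 5 kb of the start taken from the window was 6 at *Atoh1*, 1 at *Gata3*, 0 at *Pax2* and 3 at *Jag1*. Counted to 10 kb it was 5 at *Jag1*, and to 15 kb 5 at *Gata3* and 6 at *Jag1*. The *Gata3* count at 5 kb may not be that of its promoter, which could not be placed in mm9. Ranked by fold enrichment, the median percentile at *Pax2* was 53.2, which put *Pax2* above *Gata3* and *Gata3* above *Atoh1*, the opposite of their order by score. When 1 replicate was left out, the regions ran from 17 to 34 in all, from 2 to 10 at *Atoh1*, from 2 to 9 at *Gata3* and from 3 to 5 at *Pax2*, the lowest value of each being that without POLII replicate 1. Regions with C-MYC and SOX2 at *Gata3* ran from 0 to 1, the 1 being without SOX2 replicate 2, and lists at the *Gata3* start taken from the window from 0 to 1, the 0 being without POLII replicate 1. The calls from 1 replicate number, the distance of 15 kb, and leaving out replicates for the gene start and the ranks were chosen after seeing the data. The depth limits all counts, since binding under a score of 50 is not listed.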

Other observations

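Within 10 kb outside the 8 edges there were 3 peaks, leaving aside peaks that cross an edge. They were 13 tags of POLII replicate 1 beside *Atoh1*, 52 tags of POLII replicate 1 beside *Gata3*, and the C-MYC replicate 1 peak of 21 tags at the *Pax2* edge. This count was not compared with the rest of the genome. The POLII replicate 1 peak beside the *Gata3* start taken from the window, which is approximate, ranked at the 97.3 percentile of its list by tags and at the 1.9 percentile by fold enrichment. The *Atoh1* start ranked in the same list at the 99.8 percentile by tags and at the 21.1 percentile by fold enrichment.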
